A study of Mus musculus with 6 samples.

Results

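The renal phosphate transporters and their scaffolds were examined as 9 genes: the type II cotransporters *Slc34a1* and *Slc34a3*, the type III cotransporters *Slc20a1* and *Slc20a2*, the type I transporters *Slc17a1* and *Slc17a3*, the PDZ scaffolds *Pdzk1* and *Slc9a3r1*, and the exporter *Xpr1*. They were found by gene symbol among the 23276 symbols of the table and account for 29 of its 54721 transcripts, 13 of them with a RefSeq mRNA identifier and 16 assembled by the authors from the reads. RNA of whole mouse kidneys was sequenced in 3 *Pkd1* F/RC single knockouts (Pkd1F/RC-SKO) and 3 double knockouts (Pkd1F/RC-DKO), all labelled as postnatal day 22. All mice of both groups carried the KspCre transgene, a Cre recombinase driven in kidney tubules, with a floxed *Pkd1* allele opposite the hypomorphic RC allele, and the double knockouts also carried floxed alleles of the miR-17~92 cluster. There was no group without a *Pkd1* mutation.

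The levels given are the mean levels that the authors deposited. They were taken as means over the kidneys of both groups, which is inferred from the series' design, since the table does not name the libraries behind them. CPM is a transcript's reads scaled to the size of the library. Each mean CPM was back-transformed from a deposited log2 value. Apart from the columns of the authors' own comparison, which were not used, the table has 1 value for each transcript and none for a single kidney. The spread between mice, the depth of each library and the difference between SKO and DKO kidneys are therefore not given here, the loss of miR-17~92 could not be checked kidney by kidney, and no test was run. Whole-kidney levels also cannot separate more cells of a type from more RNA per cell.

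Filtered phosphate is reclaimed in the proximal tubule. Sodium-phosphate cotransporters of the SLC34 family sit in the brush border membrane and carry phosphate into the cell with sodium. Scaffolds with PDZ domains hold them there, and parathyroid hormone and FGF23, which acts through its coreceptor Klotho, lower their amount in the membrane.

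The table listed *Slc34a1* at the highest level of the 9 genes. *Slc34a1* encodes NaPi-IIa, the main phosphate cotransporter of the rodent proximal tubule. Its RefSeq transcript NM_011392 had a mean of 1029 CPM (10.01 on the log2 scale), and an assembled transcript had 1030 CPM. The other 6 assembled transcripts of the gene were lower, from 280 to 623 CPM. Levels of different genes were compared per length, as CPM divided by the length in kb of the same RefSeq transcript in the reference annotation. On this scale *Slc34a1* stood at 423 CPM per kb, and only 15 genes were higher among the 12736 that had a known length and reached 1 CPM on average. The gene occupies bases 55399622 to 55414695 of chromosome 13 in mm10 (forward strand), and NM_011392 spans 13 exons and 2433 nucleotides.

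*Slc34a3*, the gene of the other renal type II cotransporter NaPi-IIc, was far lower. Its RefSeq transcript NM_080854 had a mean of 12.2 CPM, and its 4 assembled transcripts had 12.5 to 13.8 CPM. Per length this was 5.6 CPM per kb, so that *Slc34a1* stood 75.6-fold above it in the pooled RNA. The gene lies on the reverse strand of chromosome 2, from 25228897 to 25234270, and its transcript is of similar length (2183 nucleotides in 13 exons). *Slc34a2*, the third type II cotransporter, best known from lung and intestine, had 1.4 CPM per kb.

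**Figure D1:**
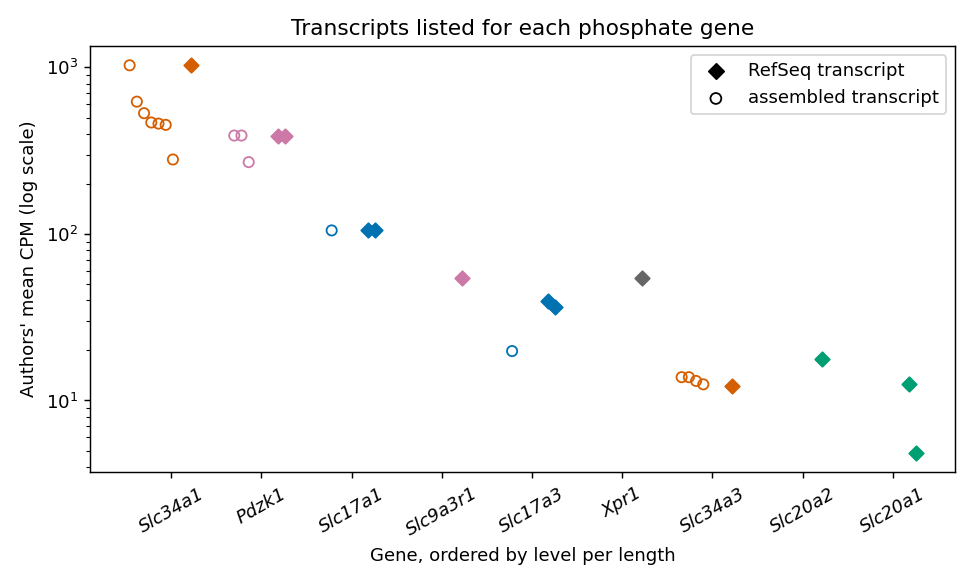
The authors' mean CPM on a log axis for each of the 29 transcripts of the 9 genes, which are ordered by level per length. Filled diamonds are RefSeq transcripts, open circles are assembled transcripts, and colours mark the families (orange type II, blue type I, green type III, pink scaffolds, grey exporter). Transcripts of *Slc17a1* coincide at 105 CPM, while those of *Slc34a1* range from 280 to 1030 CPM. There are no error bars because the table has no value for a single kidney.

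The scaffold *Pdzk1* ranked directly below *Slc34a1*. PDZK1 is a brush border protein with several PDZ domains that binds NaPi-IIa and other apical transporters. Its RefSeq transcripts NM_021517 and NM_001146001 both had 386 CPM, its assembled transcripts had 390, 390 and 270 CPM, and its level per length was 161 CPM per kb. *Slc34a1* was 2.64-fold above it. Of the 2406 exonic bases of NM_021517, on chromosome 3 from 96829456 to 96870926 for the whole gene, 55.4% also lie in exons of *Gpr89* on the opposite strand. The libraries were strand-specific, but whether reads were counted by strand is not given in the sources used here. *Gpr89* itself was listed at 7.19 CPM, against 386 CPM for *Pdzk1*.

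*Slc9a3r1* encodes NHERF1, a scaffold with a pair of PDZ domains that links NaPi-IIa to ezrin and the actin cytoskeleton. Its transcript NM_012030 had 54.2 CPM, which was 28.2 CPM per kb over 1925 nucleotides. It thus stood 5.7-fold below *Pdzk1* per length. The gene lies on the forward strand of chromosome 11, from 115163341 to 115181178. Its paralogue *Slc9a3r2*, the gene of NHERF2, was at 12.4 CPM per kb.

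The type I genes are named for phosphate transport but also carry urate and organic anions. *Slc17a1*, the gene of NPT1, was the higher of the 2, with 105 CPM in each of its RefSeq transcripts NM_009198 and NM_001170638 and in its assembled transcript, or 51.9 CPM per kb. *Slc17a3*, the gene of NPT4, had 39.5 CPM for NM_134069, 36.4 CPM for NM_001164743 and 19.8 CPM for an assembled transcript. Its 9.24 CPM per kb lay 5.62-fold below *Slc17a1*. NM_134069 is 4276 nucleotides long in the annotation and NM_001164743 only 1764, all of which NM_134069 contains. The longer transcript has 2512 nucleotides of its own in the annotation, and its mean CPM was 1.09-fold that of the shorter. The lengths over which the authors counted reads are not given in the sources used here. The level per length of *Slc17a3* rested on all 4276 nucleotides, including a 3′-UTR of 2514, and would be higher over the shorter transcript. Over the coding part alone it was 26.4 CPM per kb against 75.2 for *Slc17a1*, a ratio of 2.85.

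The 4 genes of the SLC17 cluster on chromosome 13 lie next to each other and differed widely. In order along the chromosome, *Slc17a2* (23806941 to 23825191) was at 0.114 CPM per kb, *Slc17a3* (23836922 to 23860718) at 9.24, *Slc17a1* (23867624 to 23895730) at 51.9 and *Slc17a4* (23897879 to 23915009) at 0.634. The 2 abundant genes are neighbours in the middle, 6905 bp apart. No other gene of the RefSeq annotation lies between the first and the last of them. *Slc17a4* starts 2148 bp past the end of *Slc17a1*, and its level was among the lowest listed here.

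*Slc20a1* and *Slc20a2* encode PiT-1 and PiT-2, type III cotransporters found in most tissues. *Slc20a2* had 17.7 CPM in its transcript NM_011394 (4.97 CPM per kb, chromosome 8 from 22476700 to 22569616). *Slc20a1* had 12.6 CPM in NM_015747 (3.81 CPM per kb, chromosome 2 from 129198773 to 129211615) and 4.87 CPM in NM_001159593, which had no match in the annotation used for lengths. *Slc20a1* was the lowest member per length and the only one below the median of the 12736 genes, which was 4 CPM per kb. Exons on the opposite strand cover 9.5% of NM_015747 (*9830144P21Rik*) and 6.91% (*Gm4430*), and 2.66% of NM_011394 (*Smim19*).

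*Xpr1* encodes the phosphate exporter of mammalian cells. Its transcript NM_011273 had 54.2 CPM, equal to that of *Slc9a3r1* to 3 digits, but it is 7492 nucleotides long, and its level per length was 7.24 CPM per kb. *Slc9a3r1* was 3.89-fold higher on that scale. Over the coding part *Xpr1* was at 26 CPM per kb and *Slc9a3r1* at 50.7, a ratio of 1.95, and *Slc17a3* was close to *Xpr1* at 26.4. The gene lies on the reverse strand of chromosome 1, from 155275657 to 155417444.

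The order of the levels per length was thus *Slc34a1*, *Pdzk1*, *Slc17a1*, *Slc9a3r1*, *Slc17a3*, *Xpr1*, *Slc34a3*, *Slc20a2* and *Slc20a1*. The top 4 lay between the 92.6th and the 99.9th percentile of the 12736 genes. The remaining 5 lay between the 48.3rd and the 75.7th percentile. The upper of these values is that of *Slc17a3*, whose level was divided by the longer of its RefSeq transcripts. Neighbours in the lower part of the order were close, with ratios of 1.28 between *Slc17a3* and *Xpr1*, 1.29 between *Xpr1* and *Slc34a3*, 1.12 between *Slc34a3* and *Slc20a2* and 1.31 between *Slc20a2* and *Slc20a1*. *Slc34a3* and *Slc20a2* changed places when the coding length was used (6.76 and 9 CPM per kb), and *Xpr1* then stood 3.84-fold above *Slc34a3*. Without a spread between mice it cannot be said that these neighbours differ.

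**Figure D2:**
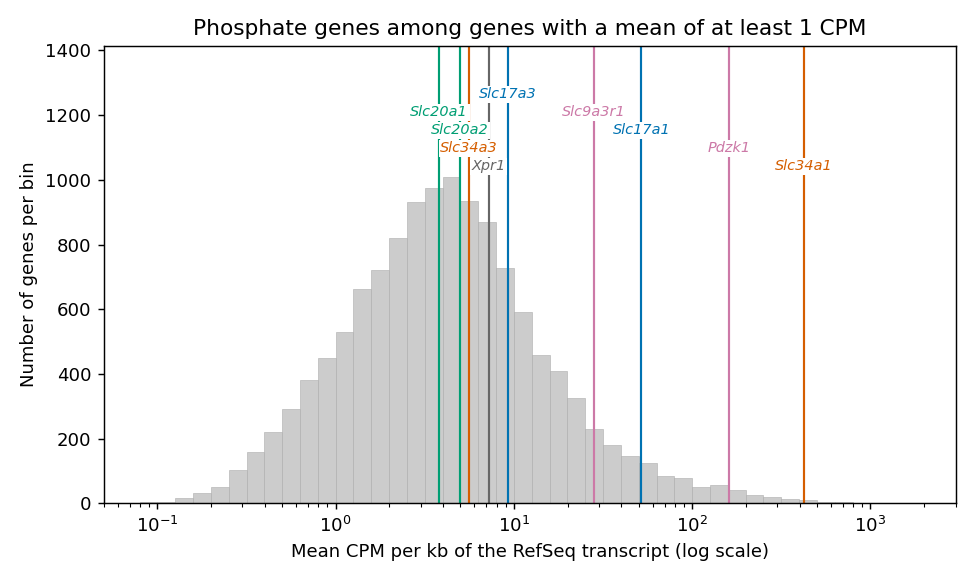
Number of genes in each bin of mean CPM per kb (log axis) among the 12736 genes that reached 1 CPM on average and had a known length, as grey bars, with the 9 phosphate genes as vertical lines. Line colours mark the families as orange type II, blue type I, green type III, pink scaffolds and grey exporter. *Slc34a1* at 423 CPM per kb lies in the far right tail, and *Slc20a1* at 3.81 lies just below the median of 4.

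The partners of these proteins were taken from lists of names. In the brush border list, *Pdzk1ip1*, which encodes a small membrane protein that binds PDZK1, was highest at 130 CPM per kb. *Ezr*, the gene of ezrin, was at 64.4, *Slc9a3*, the gene of the sodium-proton exchanger NHE3, at 10.5 and the scaffold gene *Shank2* at 2.33 CPM per kb. These levels use RefSeq transcripts. The matched length of *Slc9a3* was 2.49 kb, and its level over the coding part was the same, 10.5 CPM per kb. *Ezr* was at 116 CPM per kb over the coding part. The highest assembled transcript of *Slc9a3* had 57.4 CPM against 26.1 for the RefSeq one, and that of *Shank2* had 32.8 against 19. Of these 5 genes, *Slc9a3r2* included, 4 stood above the median of the 12736 genes that reached 1 CPM on average.

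Of the 13 hormone and sensing genes, 11 had a mean of at least 1 CPM, as did 12736 of the 22662 genes with a known length. The receptor of parathyroid hormone, *Pth1r*, was at 50 CPM per kb, and *Kl*, the gene of Klotho, at 43.9. Both were higher than the FGF receptor genes *Fgfr1* (5.96), *Fgfr3* (4.73) and *Fgfr4* (2.48 CPM per kb). The kinase gene *Sgk1* stood at 49.6 and the vitamin D receptor gene *Vdr* at 14.9 CPM per kb. *Cyp27b1*, whose product makes active vitamin D, was at 4.38 and *Cyp24a1*, whose product degrades it, at 2.48 CPM per kb. The stanniocalcin genes *Stc1* and *Stc2* were at 6.51 and 1.67. An assembled transcript of *Stc2* had 9.86 CPM, against 6.59 for the RefSeq transcript used. *Fgf23* and *Phex*, which are known as bone genes, were both under 1 CPM. *Phex* was at 0.276 CPM, and *Fgf23* at 0.0424 CPM lay near the lowest value of the table (0.0263 CPM).

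Among genes of pyrophosphate handling, *Alpl*, the tissue-nonspecific alkaline phosphatase, stood at 46.8 CPM per kb. *Enpp1*, which makes pyrophosphate, was at 2.22, and *Ank*, which carries it out of the cell, was at 1.55 CPM per kb. An assembled transcript of *Enpp1* had 24 CPM, against 15.1 for the RefSeq transcript used. *Abcc6* was the lowest at 0.395.

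**Figure D3:**
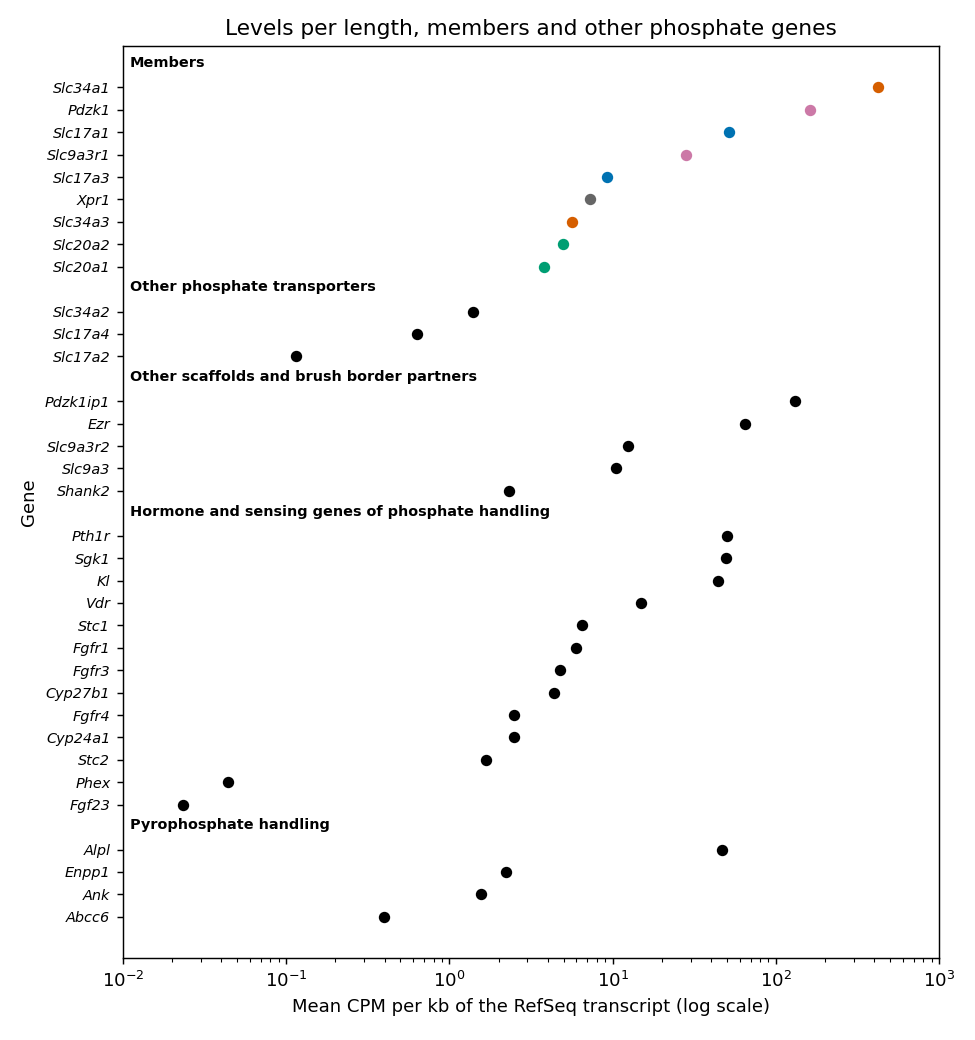
Mean CPM per kb of the RefSeq transcript on a log axis for the 9 members (coloured by family, orange type II, blue type I, green type III, pink scaffolds, grey exporter) and for the other genes of phosphate handling (black), grouped by list and ordered by level within each. *Slc34a1* at 423 is the highest gene shown and *Fgf23* at 0.0234 the lowest.

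The tissue label was compared with markers of kidney cells. All 8 markers of the proximal tubule were present, from 11.4 CPM per kb for *Cubn* to 127 for *Aqp1*. *Slc34a1* and *Pdzk1* stood above each of these markers. *Slc34a3*, *Slc17a3*, *Xpr1*, *Slc20a2* and *Slc20a1* stood below each. *Slc17a3* at 26.4 and *Xpr1* at 26 CPM per kb were above *Cubn* at 11.8 over the coding length. Over the coding length *Aqp1* was at 410 CPM per kb, above *Pdzk1* at 248 and below *Slc34a1* at 538. Markers of other segments were present too, with *Umod* and *Slc12a1* of the thick ascending limb at 374 and 132 CPM per kb. Of the distal convoluted tubule list, *Slc12a3* was at 43 and *Pvalb* at 3.3 CPM per kb. *Pvalb* lay below the median of the 12736 genes that reached 1 CPM on average. The 4 collecting duct genes ranged from 5.08 (*Slc4a1*) to 52.2 CPM per kb (*Aqp2*). Podocyte, endothelial and fibroblast markers ranged from 2.22 (*Nphs1*) to 34.5 CPM per kb (*Col1a2*). The leukocyte gene *Ptprc* was at 1.62, *Cd68* had 5.19 CPM with no length in the annotation, and the symbol *Adgre1* was not listed. The liver genes *Alb* and *Apoa1* were at 6.58 and 1.35 CPM per kb. The ubiquitous members *Slc20a1*, *Slc20a2* and *Xpr1* can come from any of these cells, and the share of each cell type in a member's level was not tested.

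The miRNAs of the cluster that was floxed in the double knockouts are shown with their seeds (bases 2 to 8) in capitals, 5′ to 3′, because they define the matches sought in the 9 genes. The sequences are RefSeq's for GRCm38.p6, the assembly of mm10, where the cluster lies on the forward strand of chromosome 14.
miR-17-5p: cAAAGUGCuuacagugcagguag
miR-20a-5p: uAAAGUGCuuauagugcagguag
miR-18a-5p: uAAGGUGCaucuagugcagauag
miR-19a-3p: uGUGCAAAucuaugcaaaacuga
miR-19b-3p: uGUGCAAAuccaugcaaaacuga
miR-92a-3p: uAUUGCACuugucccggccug

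miR-17 and miR-20a share a seed, as do miR-19a and miR-19b. The match to the shared miR-17 and miR-20a seed, GCACTTT on the transcript strand, was in none of the 3′-UTRs of the 9 genes. It was in 13.8% of the 12409 3′-UTRs of genes that reached 1 CPM on average. The match to miR-92a, GTGCAAT, was in none of the 9 either and in 7.08% of all. The 3′-UTRs searched were those of the GENCODE M21 transcripts matched to the RefSeq transcripts used above. They ranged from 153 nucleotides for *Slc34a3* to 5309 for *Xpr1* (median of genes that reached 1 CPM on average 1036). *Slc34a1*, with 455 nucleotides, and *Pdzk1*, with 763, had no match to any of the 4 seeds.

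Only 2 matches were found in the 9 genes, both 7 bases long and not followed by an A, and they are printed with the match in capitals. *Slc17a1* had TTTGCAC, the match to miR-19, at positions 313 to 319 of its 439-nucleotide 3′-UTR (chromosome 13, 23895604 to 23895610, forward strand). That match was in 12.1% of the 12409 3′-UTRs. *Xpr1* had GCACCTT, the match to miR-18a, at positions 73 to 79 of its 3′-UTR (chromosome 1, 155280931 to 155280937, reverse strand). That match was in 8.63% of the 12409 3′-UTRs.
Slc17a1: tgagtgattctTTTGCACtgtgtattgta
Xpr1: cgcaacctccaGCACCTTtttccagctga

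A match is a run of letters and not a tested site, and the length of a 3′-UTR sets how many it can hold. Whether the level of *Slc17a1* or *Xpr1* differed between kidneys with and without floxed miR-17~92 was not analysed here.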

How the data were processed

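The authors sequenced strand-specific total RNA libraries as 51 bp single-end reads, trimmed the reads, mapped them to mm10 with TopHat2 2.0.12 and an iGenomes annotation, and kept alignments of mapping quality 10 or more. Per the labels, the processing also used Cufflinks, featureCounts (Subread 1.4.6) and edgeR 3.2.4. The deposited log2 values are the mean log2 CPM of each transcript. That the mean is over the 6 kidneys is inferred from the design, as the table does not name its libraries. They hold a prior, since 4617 transcripts share the lowest value. The other deposited columns are the authors' own comparison of DKO with SKO (log2 fold change, likelihood ratio, p-value and false discovery rate) and were not used. Per-sample values and depths are unknown here, so no interval was set, and the planned test on counts could not be run.

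The level of a gene was its transcript with the highest mean CPM. Levels per length used the highest RefSeq transcript with a match in GENCODE M21 (GRCm38), found for 22662 genes. Where a RefSeq identifier matched several GENCODE transcripts, the longest coding one was taken. Overlapping transcripts of a gene can count the same reads, so their CPM were not summed. Starts and ends of genes are those of RefSeq for GRCm38.p6. Exons, transcript lengths, 3′-UTRs and the positions of seed matches are those of the GENCODE M21 transcripts. Python 3.11.15, numpy 2.4.6 and pandas 2.3.3 were used, and the choice of transcript and the percentile were tested on simulated data. The members and lists were chosen with earlier results of these data known. The rule for naming genes took every member and every gene of the phosphate lists. Of the cell markers a few are named for each list. *Gpr89*, *Gm4430*, *9830144P21Rik* and *Smim19* were added as overlapping genes after the annotation was searched.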

Additional observations from a re-analysis of the deposited data

How the results depend on the processing

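With the median over a gene's transcripts in place of the highest, *Slc34a1* was at 499 CPM in place of 1030 and *Slc20a1* at 8.75 in place of 12.6, and *Slc34a3*, *Slc17a3* and *Pdzk1* moved less (13.1, 36.4 and 386 CPM). With RefSeq transcripts only, *Slc34a3* was at 12.2 CPM in place of 13.8 and *Pdzk1* at 386 in place of 390. Subtracting the lowest mean CPM changed none of the 9 levels at 3 digits. With the coding length, 7 of the 9 genes kept their place in the order per length, and all 9 did when the highest transcript of any kind was divided by the RefSeq length, a setting chosen after seeing the data. Against every gene with a symbol and a length, the median percentile of the 9 genes was 86.3 in place of 75.7, as genes with little expression then counted. A match of 8 bases for miR-17 (the seed match and an A) was in 4.27% of the 12409 3′-UTRs, and again in none of the 9 genes. A test on counts, and with it DESeq2, no filter on low counts and the omission of each replicate, could not be run on values that hold no counts. No paired analysis was possible because the result comes from no test and no column belongs to a single kidney.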
